A study of Homo sapiens with 4 samples.

Results

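The genes described here are the numbered zinc finger genes of human chromosome 19, that is, the protein-coding genes whose symbol is ZNF followed by a number. The rule used only symbols and chromosome, and no measured value. It found 240 genes among 19974 protein-coding genes of the RefSeq table for GRCh38.p14, and the 1211 other protein-coding genes of chromosome 19 and the 237 ZNF-number genes of other chromosomes served for comparison.

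Chromatin accessibility was measured by single-cell ATAC-seq, in which a transposase cuts open DNA in isolated nuclei. The cells were Panc1, an established line of human pancreatic ductal adenocarcinoma, taken from transplanted mice. The 2 Carrier libraries came from mice 12 and 31, which received the vehicle alone, and the 2 Inflachromene libraries came from mice 11 and 35. Inflachromene binds HMGB1 and HMGB2, abundant proteins that bend DNA, and the series asks what it does to pancreatic cancer cells. The labels name no dose, duration, host strain or age. All 4 libraries rest on the same cell line, and each library stands for 1 mouse.

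Most of these genes encode KRAB zinc finger proteins. An array of C2H2 zinc fingers binds a DNA sequence, often inside a transposable element, and the KRAB domain recruits TRIM28 (KAP1). TRIM28 in turn brings SETDB1, which writes the repressive mark H3K9me3, and HP1 proteins, which read it. The family grew by tandem duplication, so neighbouring genes are often close copies, and chromosome 19 carries the largest clusters. The gene bodies themselves are known to be covered by H3K9me3 in many cell types, while their promoters can be active.

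The promoters below show the main pattern of these data. The first set comes from the cluster around ZNF91, a repressor of SVA retrotransposons. ZNF91 (chr19:23395422-23395721, minus strand) and ZNF254 (chr19:24086937-24087236, plus strand) had an accessibility peak at the start site in all 4 libraries. ZNF208 (chr19:22010894-22011193, minus strand), their close copy, had a peak in none. Each sequence is the RefSeq promoter of GRCh38.p14, from 250 bases before to 50 bases after the start, read along the gene. Capitals mark exact matches on either strand to CCGGAAG, the core bound by ETS factors, to GGGCGG, the GC box bound by SP factors, and to CCAAT, the box bound by NF-Y.
ZNF91: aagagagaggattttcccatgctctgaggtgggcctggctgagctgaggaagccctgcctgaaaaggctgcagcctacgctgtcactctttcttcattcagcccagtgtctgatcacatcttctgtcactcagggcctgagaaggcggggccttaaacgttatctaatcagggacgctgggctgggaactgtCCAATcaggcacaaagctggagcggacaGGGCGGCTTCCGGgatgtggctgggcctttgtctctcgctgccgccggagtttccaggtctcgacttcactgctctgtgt
ZNF254: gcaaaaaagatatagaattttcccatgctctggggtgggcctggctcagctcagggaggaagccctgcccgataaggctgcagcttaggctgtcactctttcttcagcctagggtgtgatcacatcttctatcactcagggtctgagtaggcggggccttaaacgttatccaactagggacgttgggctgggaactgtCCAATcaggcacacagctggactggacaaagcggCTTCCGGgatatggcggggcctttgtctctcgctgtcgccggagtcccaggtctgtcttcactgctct
ZNF208: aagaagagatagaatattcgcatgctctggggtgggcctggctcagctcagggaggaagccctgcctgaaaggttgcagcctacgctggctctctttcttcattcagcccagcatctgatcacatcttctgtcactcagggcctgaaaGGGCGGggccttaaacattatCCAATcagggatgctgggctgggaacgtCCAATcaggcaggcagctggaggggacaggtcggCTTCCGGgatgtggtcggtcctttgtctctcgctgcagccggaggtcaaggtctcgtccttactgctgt

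In a global alignment the ZNF91 promoter was 85.7% identical to that of ZNF208 and 84.2% identical to that of ZNF254. The closed promoter thus resembled ZNF91 at least as much as the open one did, and it held all 3 kinds of match. The second set comes from outside that cluster. ZNF546 (chr19:39996810-39997109, plus strand) had the most accessible region per kb of all the zinc finger genes measured. ZNF530 (chr19:57599635-57599934, plus strand) was open and had the smallest p-value among the zinc finger gene ends in the treatment comparison. ZNF671 (chr19:57727575-57727874, minus strand), in the same cluster as ZNF530, was closed. ZNF254, ZNF208 and ZNF671 were chosen for display after their values were seen.
ZNF546: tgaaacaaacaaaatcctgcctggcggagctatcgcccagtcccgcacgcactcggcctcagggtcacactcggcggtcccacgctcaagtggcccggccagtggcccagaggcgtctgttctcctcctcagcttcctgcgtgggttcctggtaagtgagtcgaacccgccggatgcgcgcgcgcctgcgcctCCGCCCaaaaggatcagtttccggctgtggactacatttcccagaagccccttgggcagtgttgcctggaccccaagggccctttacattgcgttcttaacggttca
ZNF530: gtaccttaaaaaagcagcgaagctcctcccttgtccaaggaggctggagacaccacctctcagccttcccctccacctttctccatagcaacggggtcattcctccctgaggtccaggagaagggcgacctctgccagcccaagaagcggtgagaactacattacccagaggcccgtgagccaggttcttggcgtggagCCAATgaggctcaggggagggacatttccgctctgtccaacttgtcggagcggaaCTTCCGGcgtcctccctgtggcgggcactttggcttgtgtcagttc
ZNF671: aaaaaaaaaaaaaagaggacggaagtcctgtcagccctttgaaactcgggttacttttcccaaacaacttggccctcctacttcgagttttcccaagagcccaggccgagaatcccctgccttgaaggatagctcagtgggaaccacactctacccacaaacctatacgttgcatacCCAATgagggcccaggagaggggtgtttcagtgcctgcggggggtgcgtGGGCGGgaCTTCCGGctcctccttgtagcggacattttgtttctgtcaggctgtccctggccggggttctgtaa

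The libraries held between 27088391 and 39947056 counts in peaks, in 2039 to 5186 barcodes, of which 939 to 2070 had at least 2000 counts. Barcode sequences recurred between libraries. Carrier 12 and Inflachromene 11 shared 1209 barcode names, of which 1115 were deep (at least 2000 counts) in Carrier 12 only, with a median of 16638 counts there and 158 in Inflachromene 11. Carrier 12 and Carrier 31 shared 357, of which 346 were deep in Carrier 31 only. Carrier 31 and Inflachromene 11 shared 155, and the other 3 pairs of libraries shared 25 to 29. Barcodes shared with any other library carried 58.5% of the counts of Carrier 12 and 61.8% of those of Carrier 31, against 3.26% and 1.34% in Inflachromene 11 and Inflachromene 35. The shallower copies carried at most 0.988% of a library's counts. Results on counts were therefore also computed without the shared names and without the shallower copies.

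The label of the cells was checked at marker genes. A peak near a gene end was present in all 4 libraries for 6 of 7 carcinoma markers (KRT8, KRT18, KRT19, EPCAM, CDH1 and MUC1, but not KRT7) and for 4 of 4 markers of a mesenchymal carcinoma state (VIM, ZEB1, CDH2 and AXL). It was present for none of the 4 endothelial, 3 B cell, 3 acinar and 3 endocrine markers. For myeloid cells 4 of 5 markers had such a peak (CD68, LYZ, CSF1R and ITGAM), for fibroblasts 3 of 5 (COL1A1, COL1A2 and PDGFRB, but not DCN or LUM), and for T and NK cells 1 of 4 (CD3E). Presence of a peak near a gene does not measure expression, such a peak can belong to a neighbouring gene, and the part of other cells in the results below was not tested.

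The first comparison asked how many of the zinc finger genes had open chromatin at a gene end. Peaks of the 4 libraries were merged, and a region within 1000 bp of the gene's lower or upper coordinate was counted. Of the 240 genes, 186 (77.5%) had a region with a peak in all 4 libraries, against 66.8% of the other genes of chromosome 19, 80.6% of the ZNF genes of other chromosomes and 64.1% of all protein-coding genes. A peak in some libraries but not in others was rare: it was found at 4 zinc finger genes (1.67%), against 10.6% of the other genes of chromosome 19, 5.91% of ZNF genes elsewhere and 10.8% of all genes. The remaining 50 genes (20.8%) had no peak at either end in any library. These shares are descriptions, since neighbouring copies are not independent and genes are not replicates.

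A peak was found at 188 zinc finger genes in the library of mouse 12, 187 in that of mouse 31, 187 in that of mouse 11 and 189 in that of mouse 35. The 4 genes with a partial pattern were ZNF556, ZNF541, ZNF331 and ZNF444. ZNF556 had a peak in Inflachromene 35 only, of 2.1 CPM (counts per 1000000 counts of that library). ZNF541, known from meiotic germ cells, had one in Carrier 12 only, of 1.89 CPM. ZNF331, an imprinted gene, had a peak of 7.47 CPM at its far end in Carrier 12 and of 6.41 CPM in Inflachromene 35. ZNF444 had a peak of 4.13 CPM in Carrier 31, 3.65 CPM in Inflachromene 11 and 3.70 CPM in Inflachromene 35, and none in Carrier 12. These partial patterns describe the outer ends only. In all, 15 zinc finger genes were open in all 4 libraries at the start site alone, and 13 of them had no peak at an outer end. The others of the 15 were among the 4 genes with a partial pattern. The lowest hundredth of called peaks lay under 1.13 to 1.65 CPM, so the peaks of ZNF556 and ZNF541 were near the weakest that were called. No zinc finger gene had peaks in both libraries of one group and in neither of the other. Among other genes of chromosome 19 the share was 0.826% for Inflachromene and 0.495% for Carrier, and among all genes 0.876% and 0.26%, so that the 0 of 240 is near the background.

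**Figure D1:**
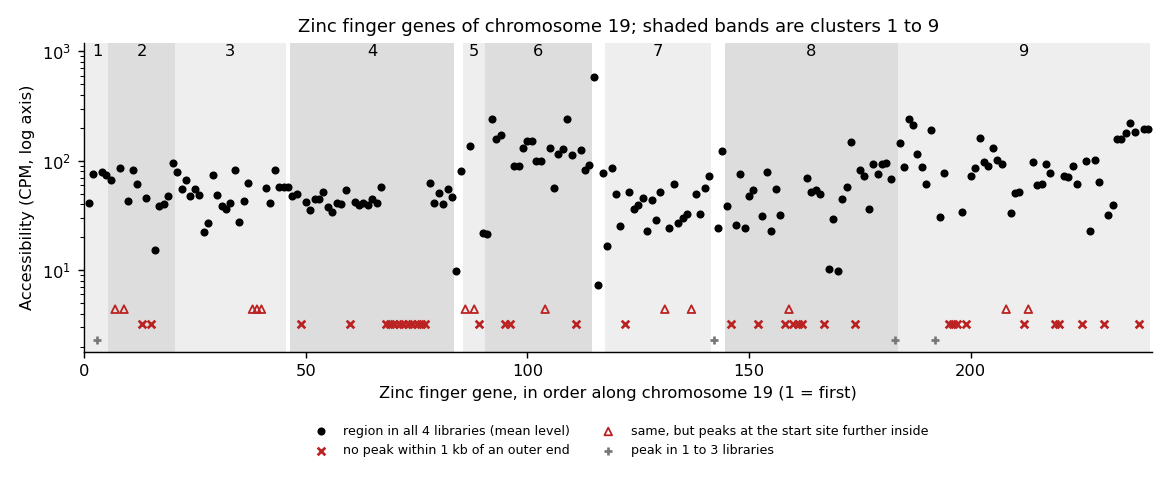
Each mark is 1 of the 240 zinc finger genes, in order along chromosome 19 (x axis), and the y axis (log scale) gives the mean accessibility of its gene end over the 4 libraries in CPM of the counts at all gene ends. Crosses, triangles and plus signs below the points have no level and mark genes without a region in all 4 libraries at an outer end. Some plus signs are genes open in all 4 libraries at a start site. Shaded bands are the 9 clusters, and the run of 10 crosses in cluster 4 stands out among otherwise open neighbours.

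Most open regions sat at the outer end from which the gene is read, called the start end here. In 30 zinc finger genes the RefSeq start site lay over 1 kb inside that end. For 166 genes with a region in all 4 libraries the strand was known from the promoter table. In 163 of them a region lay at the start end and in 12 (7.23%) at the far end. Among other genes of chromosome 19 the far end carried a region in 31.7%, and among all genes in 17.5%. Both ends had a region in 9 of the 186 zinc finger genes (4.84%), against 20.9% of the other genes of chromosome 19. The 186 genes had 198 distinct regions with a median width of 917 bp, and 31 genes shared a region with another gene.

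Among the genes open at both ends, ZNF324 had the highest level at its weaker end, with 67.1, 74.3, 80.6 and 69.4 CPM of library counts in Carrier 12, Carrier 31, Inflachromene 11 and Inflachromene 35. Its stronger region is shared with the neighbouring ZNF446. ZNF653, a corepressor of the nuclear receptor SF-1, had 42.5, 47.9, 46.2 and 42.2 CPM at the weaker end and 47.2, 55.9, 55.1 and 32.0 CPM at the end shared with ECSIT, so only its ECSIT end was low in Inflachromene 35. ZNF628, ZNF544, ZNF580 and ZNF808 followed, with mean levels of 41.1, 36.0, 34.3 and 31.3 CPM at the weaker end. ZNF808 silences MER11 elements and is known for its need in pancreas development.

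Inside the gene bodies open chromatin was sparse. After leaving out both ends, bodies of genes of at least 4000 bp held 60 regions in 6.42 Mb, or 9.35 per Mb. The other genes of chromosome 19 held 35.8 per Mb, ZNF genes elsewhere 16.2 per Mb and all genes 15.7 per Mb. Only the outer ends were left out. Regions at start sites further inside, which 30 zinc finger genes had, can therefore be counted as body regions.

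The start sites were then examined by sequence. A RefSeq promoter was matched for 210 of the 240 genes. A peak in all 4 libraries overlapped 180 of these promoters (85.7%), 2 had a peak in fewer libraries, and 28 (13.3%) had none. The corresponding open share was 56.2% among 975 other promoters of chromosome 19, 81.0% among 195 ZNF promoters elsewhere and 59.9% among all 15812 promoters. Counting the gene ends and the start sites together, 201 of the 240 genes were open at one or the other, 15 of them at the start site alone because the start lay further inside the listed gene.

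The open share changed little with CpG number in the zinc finger promoters and much in the others. Over all promoters with fewer than 10 CpG dinucleotides in the 300 bases, 11.4% were open, and 10.2% of the 256 such promoters of other chromosome 19 genes. Among the zinc finger genes 11 of 14 such promoters were open (78.6%), and among ZNF genes elsewhere 5 of 20 (25%). Most of these 11 lay in the ZNF91 cluster: ZNF626 and ZNF737 with 8 CpG, and ZNF66, ZNF85, ZNF90, ZNF681, ZNF682, ZNF708 and ZNF429 with 9. ZNF708 and ZNF429 were 55.5% and 54.1% identical to the ZNF91 promoter, little more than ZNF530 was to ZNF671 (53.5%). The others named were 65.4% to 80.3% identical to it, so those are related copies. As neighbours in the same cluster, none of them is taken as an independent case. With 10 to 19 CpG the open share was 85.0% for 80 zinc finger promoters, 76.1% for 46 ZNF promoters elsewhere and 45.5% for 198 other promoters of chromosome 19. From 20 CpG upward the shares lay close together: 87.4% of 87 zinc finger promoters with 20 to 29 CpG were open against 83.9% of 248, and 86.2% of 29 with 30 or more against 82.1% of 273. The median CpG number was 20 in open and 18.5 in closed zinc finger promoters, while it was 27 in open and 8 in closed promoters of other chromosome 19 genes. In the zinc finger genes, then, closed promoters had nearly as many CpG as open ones.

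**Figure D2:**
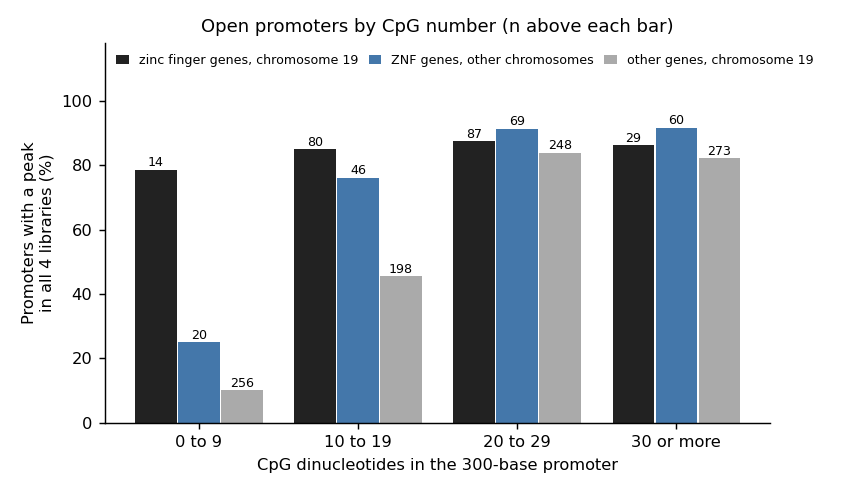
Bars give the percent of promoters with a peak in all 4 libraries (y axis) by the number of CpG dinucleotides in the 300-base promoter (x axis), for the 3 gene groups; the number of promoters stands above each bar. The black bars of the zinc finger genes lie between 78.6% and 87.4% in all 4 classes, while the grey bars of other chromosome 19 genes climb from 10.2% to 82.1%. Most open zinc finger promoters of the lowest class belong to the ZNF91 cluster.

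Motif letters differed as well. The ETS core CCGGAAG (or CTTCCGG on the other strand) stood in 93 of the 210 zinc finger promoters (44.3%), in 36.9% of ZNF promoters elsewhere, in 13.4% of other chromosome 19 promoters and in 14.2% of all promoters. CCAAT stood in 52.9% of the zinc finger promoters against 36.3% of all, and GGGCGG in 69.5% against 58.5%. The TATA letters TATAAA were found in 1.90% against 9.64%, and the E-box CACGTG in 3.81% against 8.87%. These short strings can overlap each other, and a match is not a bound site. Over all promoters the ETS core was found in 21.3% of open and 3.32% of closed promoters. In the zinc finger genes it was found in 43.3% of the 180 open and in 53.6% of the 28 closed promoters, so that its presence did not divide open from closed.

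**Figure D3:**
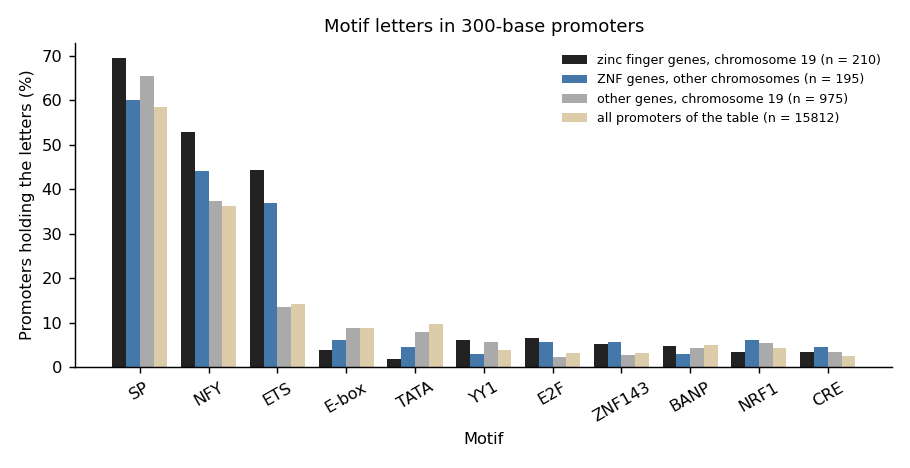
Bars give the percent of 300-base promoters that hold the letters of each motif on either strand (y axis) for the 4 gene groups named in the key with their numbers of promoters. The ETS bar is 44.3% for the zinc finger genes of chromosome 19 and 14.2% for all promoters.

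The cluster of ZNF91 gave the closest comparison of open and closed copies. It is cluster 4 of the 9 runs of at least 5 genes with gaps under 1 Mb, and it spans 19.7 to 24.1 Mb with 37 genes. A promoter sequence was matched for 29 of them. The ETS core stood in 16 of 23 open and 5 of 6 closed promoters, CCAAT in all 23 and all 6, and GGGCGG in 18 and 4. Identity to the ZNF91 promoter had a median of 79.1% over the other 22 open promoters and of 78.2% over the 6 closed ones, with ranges of 49.1% to 84.2% and 72.8% to 85.7%. The 6 closed promoters were those of ZNF208, ZNF257, ZNF492, ZNF723, ZNF730 and ZNF714.

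All but ZNF714 of these lay in a single run. From ZNF208 to ZNF730, 10 consecutive zinc finger genes (ZNF208, ZNF257, ZNF676, ZNF729, ZNF98, ZNF492, ZNF99, ZNF723, ZNF728 and ZNF730, from 21939815 to 23147221) had no peak at a gene end. No region open in all 4 libraries was found between 21852486 and 23249904, a gap of 1397 kb. The genes on either side were open in every library, ZNF43 with 60.6, 56.9, 57.9 and 53.4 CPM and ZNF724 with 63.8, 59.5, 65.3 and 61.7 CPM of gene-end counts in Carrier 12, Carrier 31, Inflachromene 11 and Inflachromene 35. Whether reads map uniquely to these close copies, and how many copies of this segment Panc1 carries, was not tested. The counts exist only inside called peaks, so a closed gene has no count rather than a count of 0.

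Shorter runs lay elsewhere. ZNF528, ZNF534 and ZNF578 formed a closed run in cluster 8, and ZNF667, ZNF471 and ZNF470 formed one in cluster 9, in which ZNF154 and ZNF671 were also closed side by side. In cluster 6, ZNF529 and ZNF382, which start next to each other in opposite directions, were both closed, with 28 and 27 CpG in their promoters. ZNF154, ZNF671, ZNF382 and ZNF471 are known as genes whose promoters are methylated in carcinomas, and methylation was not measured here. Of the 50 genes without a peak at an end, 13 were open at a start site inside the gene, 27 had no peak at the start site and 10 had no matched promoter. In 27 of the 50 no peak of any library overlapped the gene.

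For levels and for the treatment comparison, CPM from here on means counts per 1000000 counts at all gene ends, scaled by TMM factors. The 9 clusters held 231 of the genes, and 8 of the 9 genes outside them had a region in all libraries. The open share was 88.0% in cluster 3 (25 genes, 11.5 to 12.6 Mb), 87.5% in cluster 7 (24 genes, 43.5 to 45.1 Mb) and 83.3% in cluster 6 (24 genes, 36.2 to 37.8 Mb). It was 40% in cluster 5 (2 of 5 genes), 67.6% in cluster 4, 73.3% in cluster 2, 74.4% in cluster 8, 80% in cluster 1 and 77.2% in cluster 9 (57 genes, 55.5 to 58.5 Mb), where 25.5% of the 47 other genes had a region. Cluster 6 had the highest median level, 120 CPM, and cluster 7 the lowest, 39.3 CPM. 

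Levels of the 186 measured genes had a median of 56.5 CPM, with quartiles of 40.6 and 89.1 CPM and a range of 7.26 to 577 CPM. The medians were 70.6 CPM for other chromosome 19 genes and 68.1 CPM for all genes. Levels above 200 CPM were found in 6 zinc finger genes (3.23%), against 8.03% of the other chromosome 19 genes, and levels below 20 CPM in 6 (3.23%) against 12.7%.

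ZNF546 was the most accessible per kb of region, with 596, 502, 581 and 628 CPM in Carrier 12, Carrier 31, Inflachromene 11 and Inflachromene 35. It lies outside the clusters, and its groups overlapped. ZNF146, which consists almost wholly of zinc fingers and is known to be overexpressed in pancreatic carcinomas, came next with 224, 240, 251 and 247 CPM. ZNF837 had 222, 223, 223 and 223 CPM, the same level in every library on this scale. Scaled to all regions with a peak in all 4 libraries, its region had 125, 138, 144 and 128 CPM. ZNF324 and ZNF446 (1 shared region) and ZNF524, a telomere-binding protein, completed the 6 highest, with means of 194 and 240 CPM. The lowest levels per kb belonged to ZNF574, ZNF536, ZNF320, ZNF28, ZNF426 and ZNF575. ZNF574 had 8.54, 8.44, 7.14 and 4.90 CPM, and its region lay at the far end of the gene. ZNF536, a repressor of neuronal differentiation, had 10.8, 8.38, 9.16 and 11.3 CPM.

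In single nuclei most of these promoters were seen without a fragment. After each deep barcode was thinned to 4000 fragments, the median barcode had a fragment in 24, 25, 27 and 23 of the 198 zinc finger regions in Carrier 12, Carrier 31, Inflachromene 11 and Inflachromene 35. Thinning left out 201, 223, 297 and 265 shallower barcodes, and the unthinned medians were 48, 82, 54 and 52. The ZNF546 region had a fragment in 67.4%, 61.7%, 66.0% and 66.6% of thinned barcodes, and the ZNF146 region in 36.1%, 41.6%, 41.6% and 37.0%. No doublet caller was run, so a barcode can hold more than 1 nucleus. Barcodes are not replicates, and no test was made on them. In sums over a library, fewer barcodes with an open site and fewer fragments per barcode cannot be told apart.

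The second comparison asked whether accessibility at these genes differed between Inflachromene and Carrier. With a threshold of 0.05 on the Benjamini-Hochberg adjusted p of edgeR's quasi-likelihood fit, no zinc finger gene end was called, and the background was the same, with 0 of 12807 gene ends called (0%). The smallest adjusted p of a zinc finger gene was 0.814. At an unadjusted p under 0.05 there were 5 of 186 (2.69%), 2 higher and 3 lower, against 5.72% of all gene ends. The groups did not overlap at 27 genes that were higher under Inflachromene (14.5%, against 17.2% of all gene ends) and at 31 that were lower (16.7%, against 17.3%). These shares are near or below the background. DESeq2 called 23 gene ends (0.18%), none of them a zinc finger gene.

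The fold changes were small and bounded. The median log2 fold change was -0.02 over the 186 zinc finger gene ends, of which 85 lay above 0, and 0.00 over both the other chromosome 19 genes and all genes. The 95% interval lay within -0.5 and 0.5 for 164 of the 186 (88.2%) and within -1 and 1 for 185. The median absolute log2 difference between libraries over these genes was 0.102 between the 2 Carrier libraries and 0.102 between the 2 Inflachromene libraries, and it ranged from 0.0854 to 0.119 across groups. Differences across groups were thus of the size of those within groups. The sign of the median turned without the shared barcode names (0.02), without Carrier 12 (0.02) and without Inflachromene 11 (0.00).

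**Figure D4:**
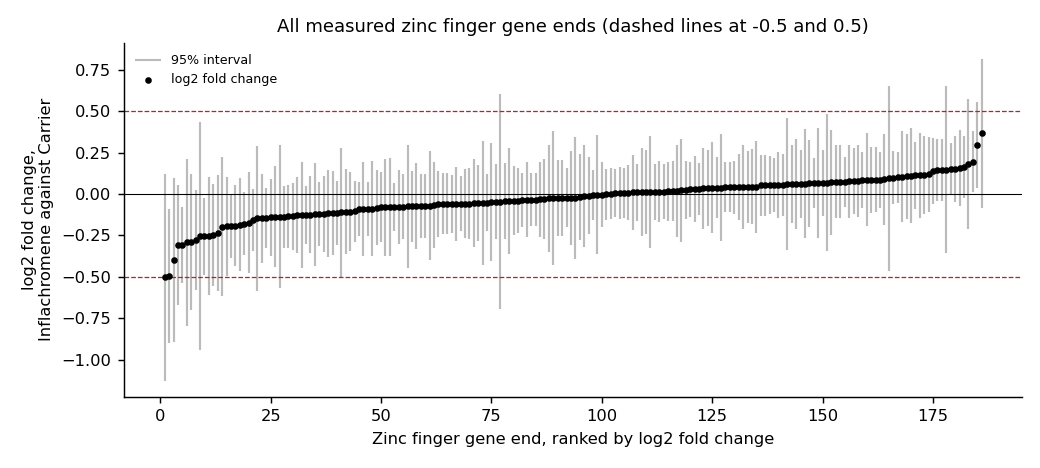
Points give the log2 fold change of Inflachromene against Carrier (y axis) for the 186 measured zinc finger gene ends, ranked from lowest to highest (x axis), with their 95% intervals as grey lines. For 164 of them the interval lies between the dashed lines at -0.5 and 0.5.

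The genes named next are the 8 with the smallest p in each direction among those whose groups did not overlap, and none of them passed the test. ZNF91 had 35.9 and 38.3 CPM in Carrier 12 and 31, and 44.2 and 46.7 CPM in Inflachromene 11 and 35. Its groups did not overlap, and the ratio was 1.23 (95% interval 1.02 to 1.47, log2 fold change 0.29, SE 0.12, adjusted p = 0.838). ZNF564, a KRAB gene of cluster 3, had 75.4 and 78.3 CPM against 91.8 and 84.2 CPM, a log2 fold change of 0.20 (SE 0.08). ZNF181 had 132 and 126 CPM against 143 and 143 CPM. ZNF383 had 126 and 120 CPM against 147 and 129 CPM. In ZNF383 the 2 Inflachromene libraries lay further apart than the groups did.

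ZNF350 (ZBRK1), a repressor that works with BRCA1, had 20.9 and 21.7 CPM against 22.5 and 32.4 CPM, so its difference came from Inflachromene 35. ZNF568 and ZNF829 share 1 region, with 88.9 and 101 CPM against 105 and 104 CPM, and count as 1 measurement. ZNF568 is the human relative of the mouse gene that silences a placental Igf2 transcript. ZNF816 had 55.0 and 53.0 CPM against 58.8 and 61.3 CPM, a log2 fold change of 0.15.

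Among the lower gene ends ZNF530 had 68.5 and 63.3 CPM in the Carrier libraries and 49.4 and 57.0 CPM in the Inflachromene libraries. Its ratio was 0.809 (95% interval 0.690 to 0.947), with a log2 fold change of -0.31 (SE 0.10, adjusted p = 0.814). With a window of 2000 bp around the gene end its log2 fold change was -0.11. ZNF649 had 33.8 and 26.5 CPM against 19.9 and 22.8 CPM, and a ratio of 0.710 (95% interval 0.537 to 0.938). The 2 Carrier libraries lay further apart than the lower Carrier library lay from the higher Inflachromene library. ZNF224, a KRAB repressor known as a partner of WT1, had 58.7 and 53.4 CPM against 49.1 and 45.0 CPM, with a log2 fold change of -0.26 (SE 0.10).

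ZNF525 had 84.4 and 75.4 CPM against 68.8 and 71.0 CPM, and ZNF776 had 80.0 and 73.2 CPM against 66.0 and 69.3 CPM. ZNF221, a neighbour of ZNF224 in cluster 7, had 41.7 and 38.1 CPM against 30.7 and 35.2 CPM. In ZNF808 the values were 75 and 71.7 CPM against 63.2 and 68.5 CPM, and in ZNF256 they were 111 and 103 CPM against 101 and 93.5 CPM. On this scale Carrier 12 was the highest library in all 8 of these genes. Scaled to all regions with a peak in all 4 libraries, it was the highest at ZNF649 and ZNF525 only. There ZNF530 had 38.5 CPM in Carrier 12 and 39.2 CPM in Carrier 31. Without the shared barcode names the log2 fold changes of the 5 genes with an unadjusted p under 0.05 were 0.34 (ZNF91), 0.18 (ZNF564), -0.10 (ZNF530), -0.37 (ZNF649) and -0.18 (ZNF224).

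**Figure D5:**
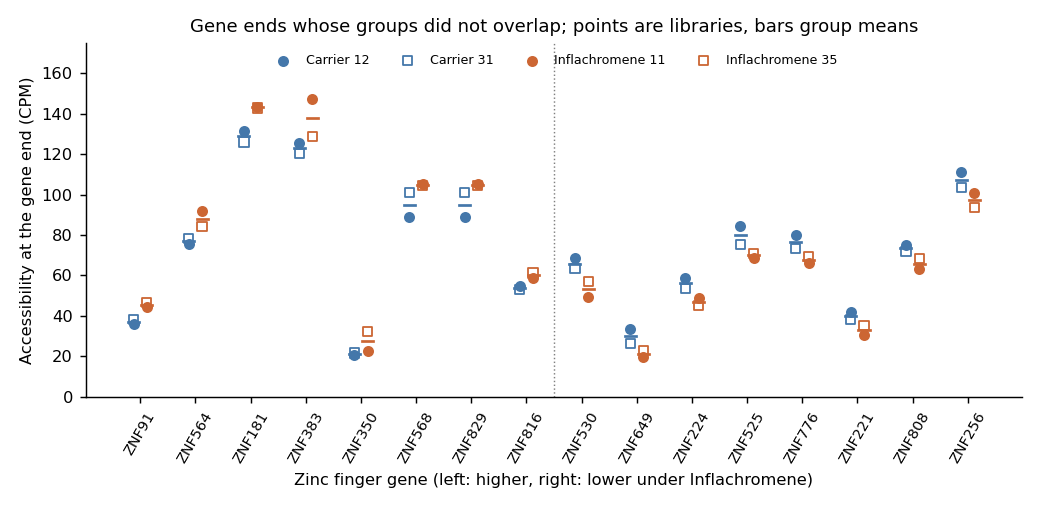
Points are libraries (blue Carrier, orange Inflachromene; filled and open symbols the 2 mice of each group), bars are group means, and the y axis gives the gene-end level in CPM for the 8 genes with higher and the 8 with lower values under Inflachromene. ZNF568 and ZNF829 are the same region; in ZNF91 the values run from 35.9 to 46.7 CPM and in ZNF530 from 68.5 down to 49.4 CPM.

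ZNF653 was the exception when a library was left out. Its values were 84.1, 90.1, 85.2 and 56.0 CPM in Carrier 12, Carrier 31, Inflachromene 11 and Inflachromene 35, so Inflachromene 35 was low, Inflachromene 11 lay between the Carrier values and the groups overlapped. With all libraries its log2 fold change was -0.31 (SE 0.16, adjusted p = 0.882). Without Inflachromene 11 the Inflachromene arm is 1 library, which is assumed to vary as the 2 Carrier libraries do, and the value was -0.64 (adjusted p = 0.0114), the only zinc finger gene among 76 gene ends then called (0.593%). Its region is shared with ECSIT.

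Single regions, scaled by the counts of all such regions, were tested in the same way. Of 50771 regions with a peak in all 4 libraries, 0 were called (0%) and 4.48% had an unadjusted p under 0.05, against 1 of the 198 zinc finger regions, that of ZNF649 (log2 fold change -0.45, SE 0.19). The median log2 fold change of the zinc finger regions was 0.02, of the opposite sign to that of the gene ends, and that of all regions was 0.01. The genes named for direction were chosen because their groups did not overlap at the gene ends. Gene-end values are sums of these same region counts on another scale, so the regions are no separate check of those genes. A background share of non-overlapping regions was not computed. On the region scale the groups did not overlap at ZNF91 (0.33, SE 0.17) and ZNF530 (-0.27, SE 0.15). The same held at ZNF181, ZNF350, ZNF816, ZNF649, ZNF525, ZNF776, ZNF221 and the stronger region of ZNF808. They overlapped at ZNF564, ZNF383, the region of ZNF568 and ZNF829, ZNF256 and the stronger region of ZNF224. At ZNF546, where they overlapped on the gene-end scale, they did not overlap here (335 and 311 CPM in Carrier, 376 and 359 CPM in Inflachromene). Without Inflachromene 11, again with 1 library in that arm, 3180 regions were called (6.26%), among them 2 zinc finger regions, at ZNF653 and ZNF626.

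The clusters moved little as wholes. Their median log2 fold changes ran from -0.06 in clusters 2 and 9 to 0.17 in cluster 5, which has 2 measured genes. In cluster 6, 17 of 20 gene ends lay above 0 with a median of 0.05, and the 5 other genes measured there had a median of 0.06. The 20 are not all separate measurements. ZNF461 and ZNF567, ZNF345 and ZNF790, ZNF568 and ZNF829, and ZNF569 and ZNF570 share a region within each pair. In cluster 9, 15 of 44 lay above 0 with a median of -0.06, against 0.01 for 12 other genes. In cluster 7, 5 of 21 lay above 0, with a median of -0.05 against 0.01 for 19 other genes. The summed levels in Carrier 12, Carrier 31, Inflachromene 11 and Inflachromene 35 were 4405, 4163, 4096 and 4247 CPM in cluster 9. They were 925, 871, 844 and 889 CPM in cluster 7, and 2066, 2136, 2226 and 2150 CPM in cluster 6. In clusters 7 and 9 Carrier 12 was the highest library and Carrier 31 lay below Inflachromene 35. The genes nearest to the cluster medians were ZNF57, ZNF557, ZNF625, ZNF682, ZNF181, ZNF573, ZNF575, ZNF83 and ZNF581, for clusters 1 to 9. ZNF682, for cluster 4, had 41.9, 46.5, 45.2 and 43.9 CPM in Carrier 12, Carrier 31, Inflachromene 11 and Inflachromene 35.

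The zinc finger genes took 15.9%, 15.4%, 15.4% and 15.5% of the counts at gene ends of chromosome 19 in Carrier 12, Carrier 31, Inflachromene 11 and Inflachromene 35, from 198 of 1058 regions (18.7%). The group means were 15.6% ± 0.367 (SD, n = 2) and 15.4% ± 0.0896 (SD, n = 2), a difference of -0.215 percentage points. Carrier 12 alone stood above the rest, and without it the difference was 0.0447 points.

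A list of 28 genes was also measured, of KRAB cofactors, H3K9 methylation and related chromatin proteins, CTCF among them. A region was present in all libraries for 27 of them (not for UHRF1), none was called in either direction, and 12 lay above 0. TRIM28, the corepressor itself, had 232, 239, 231 and 247 CPM in Carrier 12, Carrier 31, Inflachromene 11 and Inflachromene 35, a log2 fold change of 0.02 (95% interval -0.14 to 0.18). SETDB1, the H3K9 methyltransferase, had 100.1, 106, 96.3 and 112 CPM, also 0.02 (-0.18 to 0.22). TASOR, a subunit of the HUSH complex, had 52.9, 38.7, 34.9 and 34.9 CPM, a log2 fold change of -0.39 (SE 0.16, adjusted p = 0.838), the only one of the list with an unadjusted p under 0.05 and with Carrier 12 far above the other libraries. PPHLN1, another HUSH subunit, had a log2 fold change of -0.17, and ATF7IP2, a partner of SETDB1, one of -0.11. MPHOSPH8, of the same HUSH complex but outside the naming rule, went the other way, with a log2 fold change of 0.11. It had 55.4 and 55.5 CPM in Carrier 12 and 31, and 62.3 and 57.2 CPM in Inflachromene 11 and 35.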

How the data were processed

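Libraries were grouped by the treatment in the labels and named by mouse number. The submitters' processing notes list GRCh38, Cell Ranger ARC and Cell Ranger ATAC 2.1.0, with neither role nor settings. The authors deposited, per library, a peak list and whole-number counts per peak and barcode, not normalized. Between 82.4% and 84.9% of entries are even, as where both fragment ends are counted. Peaks overlapping by 1 bp were merged over libraries (128195 regions; 50771 with a peak in all 4). Counts were summed per library. A gene end is the sum of such regions within 1000 bp of a gene's outer coordinate, and the stronger end was taken. The main test was edgeR 4.0.16 (TMM, quasi-likelihood, Benjamini-Hochberg) in R 4.3.3, fitted on all 12807 gene ends or all 50771 regions; the fit of gene ends was tested on simulated data. DESeq2 1.42.0 was the other tool. Motifs, alignments and thinning were run in Python 3.11.15. Levels per kb divide by region width.

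The zinc finger genes, the lists and the rules were chosen with earlier results of these data known. Named genes were the 8 non-overlapping ones with the smallest p in each direction, the 6 highest and 6 lowest per kb, the 6 strongest open at both ends, the gene nearest each cluster's median and 4 cofactors; closed genes and partial peaks were named after their values were seen. An item that the rule names is not reported here, and counts include it. Libraries are said to come from separate mice, and p-values measure the spread between 2 libraries a group.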

Additional observations from a re-analysis of the deposited data

How the results depend on the processing

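With 2 libraries a group, the number of called gene ends was 0 in the main setting and in 10 of the 11 alternatives that kept all libraries, and 23 with DESeq2; leaving out 1 library, where the lone library of an arm is assumed to vary like the other group, gave 0 to 76, with 76 without Inflachromene 11, 7 without Inflachromene 35 and 0 without either Carrier library. Regions gave 0, 28 with DESeq2, and 0 to 3180 on leaving out 1 library, with 3180 without Inflachromene 11, 299 without Inflachromene 35, 5 without Carrier 31 and 0 without Carrier 12. The median log2 fold change of the zinc finger gene ends was 0.023 without the shared barcode names and ran from -0.051 (without Carrier 31) to 0.016 (without Carrier 12) on leaving out 1 library; the cause was not tested. The difference in the share of chromosome 19 counts was -0.0352 points without the shared names and ran from -0.475 to 0.0447 on leaving out 1 library. A region in all libraries was found for 184 genes with a window of 500 bp, 192 with 2000 bp, 186 where a peak had to cover at least 0.5 of the region and 182 with peaks of at least 5 CPM. Of 43 named gene ends and cofactors, 30 kept their sign in every one of up to 15 alternatives that gave a value; for the 16 genes named for direction, chosen because their groups did not overlap, leaving out 1 library could hardly turn the sign. The alternative without the filter on low counts tested the same 12807 gene ends with the same values. It is therefore no separate check of called gene ends or of signs. The 2 alternatives on shared barcodes were chosen after seeing the data, and presence could not be recomputed with them, because peaks were called on all barcodes. No paired analysis was possible because the groups share no mouse number. Accessibility of closed genes is limited by peak calling: sites without a peak have no count.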

Other observations

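The symbol rule leaves out other zinc finger genes of the chromosome. Of 12 ZFP, ZSCAN, ZIM and ZIK genes of chromosome 19, 5 had a region in all 4 libraries (41.7%) and 6 had no peak at either end. The median level of the 5 was 120 CPM and their median log2 fold change 0.06, with all 5 above 0 and none with an unadjusted p under 0.05. Of the 6 ZNF genes of the chromosome with a letter after the number (ZNF585A, ZNF585B, ZNF780A, ZNF780B, ZNF587B and ZNF324B), 4 had a region in all libraries and 1 had no peak.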
